A study of Mus musculus with 8 samples.

Results

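The 6 array entries described here carry miRNA names but are grouped as pieces of structural RNAs, that is ribosomal, small nuclear, transfer and mitochondrial RNAs, which make up most of the RNA of a cell. They are mmu-miR-712, mmu-miR-714, mmu-miR-715, mmu-miR-720, mmu-miR-801 and mmu-miR-805, chosen by name out of 567 mouse miRNA entries of the array, from a list drawn up with their differences between treated and untreated arrays in view, and all 6 are on the array. Whether miRBase still lists them was not examined here. The study measured miRNAs in dendritic cells that were raised from C57BL/6 mouse bone marrow in GM-CSF at 40 ng/ml, the cytokine commonly used for such cultures. The non-adherent cells of day 9 were left overnight without stimulus or with ODN1826, a CpG oligonucleotide of class B, at a dose of 10 µM, a short DNA that the receptor TLR9 senses. There were 4 untreated and 4 CpG samples, each on 1 of the 8 arrays of 1 slide. One label gives the control as medium alone and another names PBS, and no sample had a control oligonucleotide. The animals' age and a sort of the cells are not given in the labels, so that other cells of a GM-CSF culture may be present, and the labels do not say that the numbered samples came from separate animals or cultures. In total RNA of this kind, fewer cells of a type and less RNA per cell cannot be told apart.

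A true miRNA is cut from a hairpin by the enzymes Drosha and Dicer, loaded into an Argonaute protein and guided to mRNAs through its seed near the 5′ end. Ribosomal RNA is cut from a long precursor whose spacers are discarded, transfer RNAs are cleaved into fragments under stress and infection, U11 small nuclear RNA works in the minor spliceosome, and the mitochondrial genome is transcribed as long strands that are then cut. Short pieces of all of these are picked up by small-RNA cloning, and some were given miRNA names. The arrays label the 3′ ends of total RNA with Cy3 and read it with short probes, so that a short piece and a longer RNA that ends in the same bases cannot be told apart by signal.

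The array's own annotation (build mm9) placed 4 of the 6 entries and left miR-712 and miR-714 unmapped. miR-715 lay at chr17:39981103-39981115 on the minus strand, a region described as a copy of the ribosomal RNA precursor. miR-720, described as a piece of a threonine transfer RNA, lay at chr3:88920532-88920543. miR-801 lay at chr4:131826064-131826078, and RefSeq's gene table lists mir-801 as a synonym of Rnu11, the gene of U11 small nuclear RNA. miR-805 lay on the mitochondrial genome at bases 16169 to 16182. miR-712 has been described as a piece of the second internal spacer of the ribosomal RNA precursor and studied in blood-vessel walls. The origins given for miR-712, miR-715 and miR-720 are background and were not checked against a sequence here, and none is given for miR-714. These coordinates span the bases that the entry's longest probe pairs with, not a whole RNA. The target of miR-720 covered 12 bases, that of miR-715 13, that of miR-805 14 and that of miR-801 15. Over the 560 mouse entries with a mapped target the longest target had a median of 18 bases (range 12 to 24). No entry had a shorter one than miR-720, a length it shared with 2 others, and 6.61% of entries had a target as short as that of miR-715 or shorter.

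None of the 6 entries matched a name in RefSeq's miRNA table (0 of 6). The sequences shown are those of 4 mouse miRNAs that the entries are set against below and that matched by name (RefSeq, GRCm38.p6), with the seed, bases 2 to 8, in capitals. The first is the nearest in profile to miR-712, the second is among the nearest to miR-720, and the others are entries with numbers close to those of the 6.
miR-202-3p: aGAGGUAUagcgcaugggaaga
miR-324-5p: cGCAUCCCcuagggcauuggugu
miR-690: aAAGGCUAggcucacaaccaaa
miR-680: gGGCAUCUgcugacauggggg
The 4 seeds differ from one another. No seed is assigned here to any of the 6 entries.

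All values start from the scanner's processed signal, an intensity per spot after background subtraction that is not scaled between arrays. The signal of an entry is the mean over its probes, in intensity units, and the log2 signal is its log2 after division by the 75th percentile of its array, taken over 177 mouse miRNAs detected on all 8 arrays, so that 0 stands for that percentile. The CpG arrays were brighter, with a 75th percentile of 157 to 280.5 units against 101 to 144 on the untreated arrays, a 1.74-fold difference of geometric means (exact two-sided permutation p = 0.0286, the smallest that 70 arrangements can give). The 4 bright control features named hur were 1.18-fold brighter by the same measure (exact two-sided permutation p = 0.14). Dividing by the percentile therefore lowers the CpG values by 0.80 on average on the log2 scale relative to the untreated ones, and both forms are given for each entry. The myeloid markers miR-223, miR-142-3p and miR-142-5p were detected on all 8 arrays. Of the other listed markers, miR-451 and miR-144 of erythroid cells, miR-150 of lymphocytes, the 3 stromal and endothelial markers on the array and the 5 of other tissues were detected on none, while miR-181a and miR-181b were detected on all 8.

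The 6 entries fell into 3 kinds by detection. miR-712, miR-714, miR-720 and miR-801 were detected on all 8 arrays, miR-715 on the 4 CpG arrays and 0 of the 4 untreated arrays, and miR-805 on none. With a test limited to miRNAs that 3 or more of the 4 arrays in either group detected, 5 of the 6 were among the 212 tested. The set was proposed with the results of this comparison known, so the differences between CpG and untreated samples are given as descriptions, with their standard error and 95% interval from the limma fit over all 212 miRNAs and with no p-value.

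**Figure D1:**
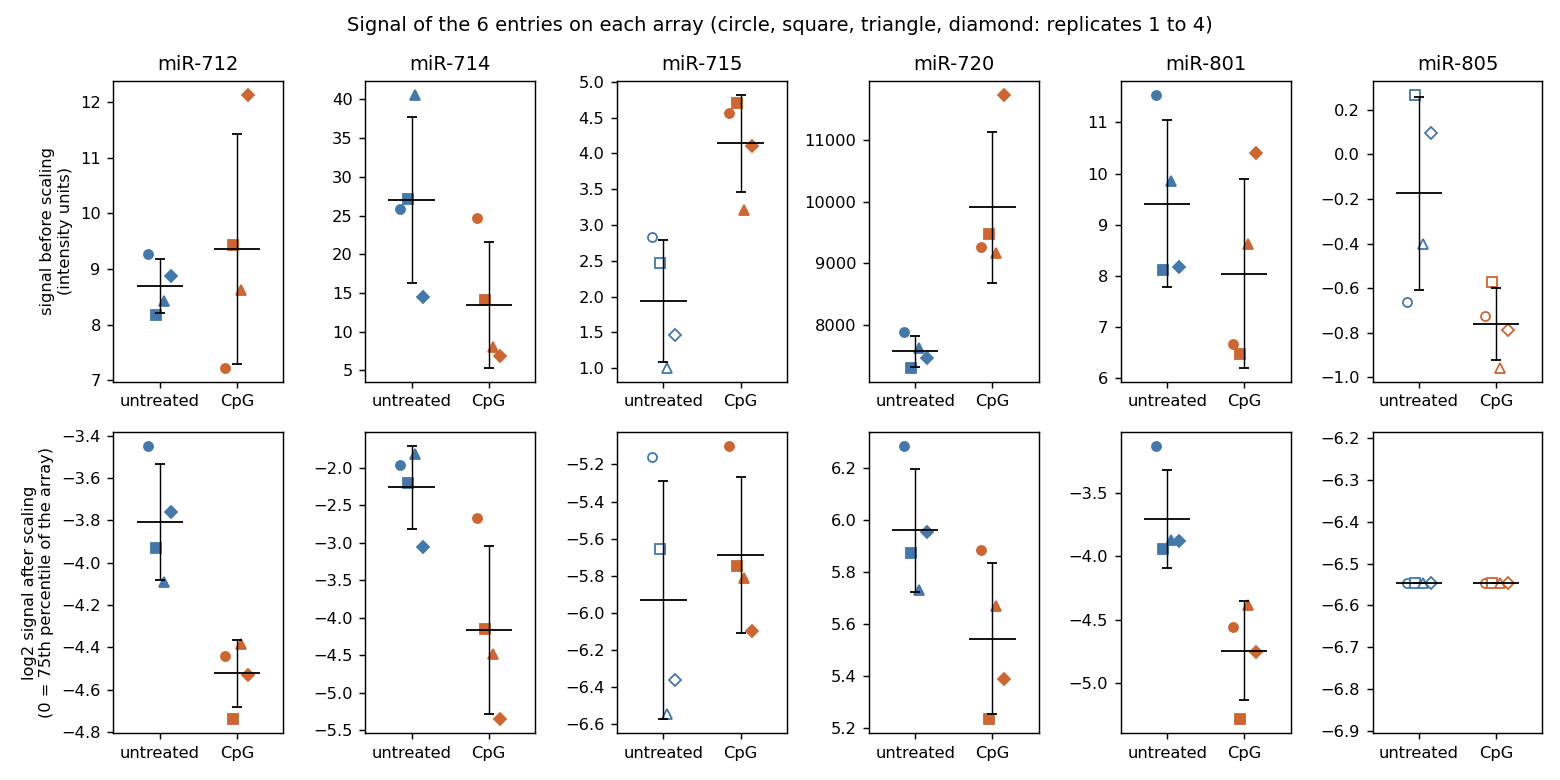
Signal of each entry on each array before scaling (upper row, intensity units) and after scaling (lower row, log2, 0 being the array's 75th percentile), with untreated arrays in blue, CpG arrays in orange, the mean as a line and the SD as bars (n = 4 each). Open symbols are arrays on which the entry was not detected, and each panel has its own axis. After scaling the CpG arrays of miR-712 and miR-801 lie below all untreated arrays, while before scaling those of miR-715 and miR-720 lie above them. Groups did not overlap for 26.9% of the 212 miRNAs tested after scaling and for 39.6% before it.

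miR-714 had the most negative difference of all 212 miRNAs tested. Its signal before scaling was 25.9, 27.1, 40.6 and 14.5 units on untreated replicates 1 to 4 and 24.7, 14.1, 8.07 and 6.87 units on CpG replicates 1 to 4. CpG replicate 1 read close to the untreated arrays and untreated replicate 4 close to CpG replicate 2, so that the groups overlapped. After scaling the log2 signal was -1.97, -2.20, -1.82 and -3.06 in untreated samples and -2.67, -4.16, -4.48 and -5.35 in CpG samples. The mean went from -2.26 ± 0.55 to -4.16 ± 1.12 (SD, n = 4 each), and the overlap of CpG replicate 1 with untreated replicate 4 remained. The difference was -1.90 (SE 0.51, 95% interval -3.04 to -0.76), a 3.74-fold lower signal with CpG. Without scaling it was -1.10 (SE 0.42, 95% interval -2.04 to -0.17), again the most negative of the 212 and below 0 in the same direction. Without CpG replicate 1 the scaled difference was -2.40, and without CpG replicate 4 it was -1.51.

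The probes of miR-714 followed each other from array to array. Of its 4 probes, each printed as 5 spots, the brightest read 37.6 to 105 units on untreated and 20.1 to 62.8 units on CpG arrays, and the next 18.7 to 55.4 and 9.55 to 32.6 units. With each probe centred on its own mean, their log2 values differed by 0.063 (root mean square over the 8 arrays), against an SD over arrays of 0.84 for the brightest. The unscaled log2 difference was -1.02 for the brightest and -1.01 for the next. Both probes showed the spread between samples of a group. The other 2 probes had 0 of 40 spots well above background each.

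miR-801, a RefSeq synonym of the U11 gene Rnu11, was lower with CpG after scaling. Its log2 signal was -3.13, -3.94, -3.87 and -3.88 in untreated samples and -4.55, -5.28, -4.39 and -4.75 in CpG samples. All CpG arrays lay below all untreated arrays, as they did for 19.8% of the 212 miRNAs tested. The means were -3.71 ± 0.38 and -4.74 ± 0.39 (SD, n = 4 each), and the difference was -1.04 (SE 0.25, 95% interval -1.59 to -0.49) or 2.05-fold. Before scaling the groups overlapped, with 11.5, 8.10, 9.85 and 8.16 units in untreated and 6.67, 6.48, 8.61 and 10.4 units in CpG samples. The unscaled difference was -0.24 (SE 0.23, 95% interval -0.75 to 0.27), which kept the direction but has an interval that includes 0.

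The signal of miR-801 rested on 1 of its 2 probes. The brighter probe had 75 of 80 spots well above background and read 14.8 to 20.3 units on untreated and 11.03 to 18.4 units on CpG arrays. The other probe, whose target is 1 base shorter, had 1 of 80 spots well above background and stayed between 1.26 and 2.99 units on all arrays. The 10 spots of the brighter probe varied within an array with a coefficient of variation of 11.4% to 19.7% (median 15.0%).

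miR-712, described as a spacer piece of the ribosomal RNA precursor, was lower with CpG after scaling but not before it. The log2 signal was -3.45, -3.93, -4.09 and -3.76 in untreated samples and -4.44, -4.74, -4.38 and -4.53 in CpG samples, without overlap. All CpG arrays lay below all untreated arrays, as they did for 19.8% of the 212 miRNAs tested. The means were -3.81 ± 0.27 and -4.52 ± 0.16 (SD, n = 4 each), and the difference was -0.72 (SE 0.17, 95% interval -1.10 to -0.34) or 1.64-fold. Before scaling it read 9.27, 8.17, 8.43 and 8.88 units in untreated and 7.22, 9.43, 8.63 and 12.1 units in CpG samples. These values overlapped, CpG replicate 4 being the highest and CpG replicate 1 the lowest, and the unscaled difference was 0.083 (SE 0.21, 95% interval -0.38 to 0.55), of the opposite sign.

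The 2 probes of miR-712 that were well above background disagreed. The brightest read 15.7, 15.2, 16.4 and 18.5 units in untreated and 15.8, 19.8, 17.9 and 27.3 units in CpG samples. The next read 21.1, 17.5, 18.1 and 15.9 units in untreated and 12.2, 13.3, 11.3 and 17.8 units in CpG samples. One was thus higher and the other lower with CpG before scaling, by 0.27 and -0.43 on the log2 scale. After scaling both were negative, at -0.53 and -1.22, with no overlap of groups in either (no share over all probes was computed). Their centred log2 values differed by 0.39 (root mean square over 8 arrays), more than the SD over arrays of either (0.28 and 0.31). The other 2 probes had 1 and 0 of 40 spots well above background. The passenger arm miR-712*, which is not one of the 6, was detected on none of the 8 arrays.

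**Figure D2:**
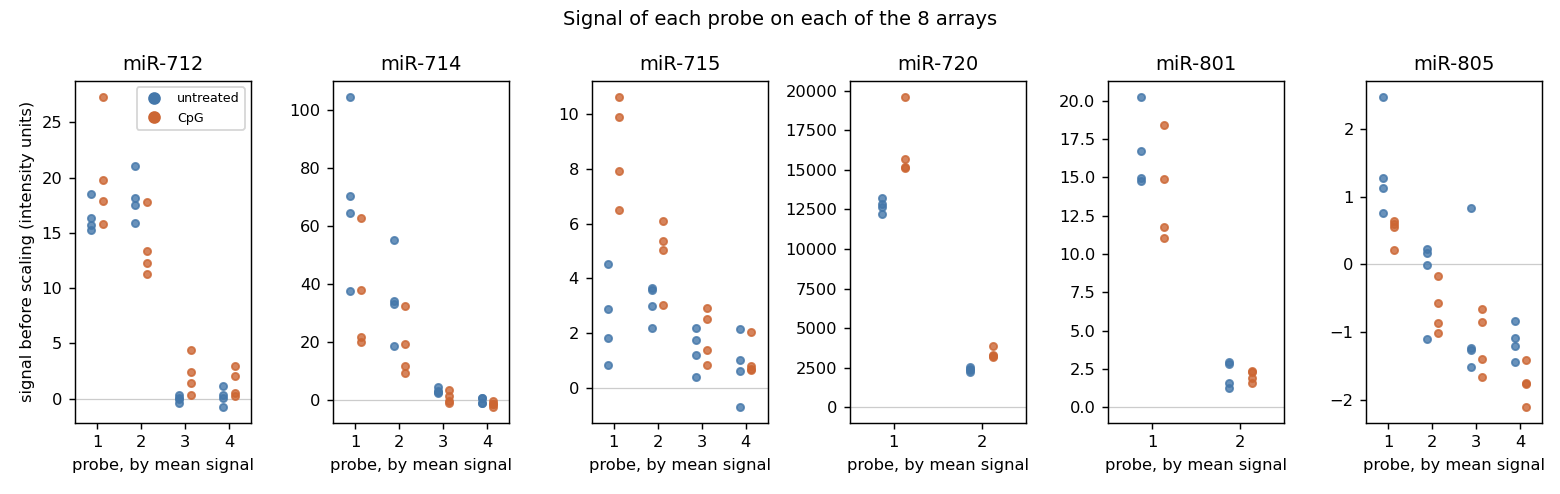
Signal before scaling (intensity units) of every probe of the 6 entries, ordered by mean signal within each entry, with 1 point per array and untreated arrays in blue and CpG arrays in orange. The 2 brighter probes of miR-714 show the same spread of arrays, those of miR-712 move in opposite directions, and a single probe carries miR-801; each panel has its own axis.

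miR-720, described as a transfer RNA piece, was well above background on all 8 arrays. It read 7889, 7296, 7627 and 7455 units in untreated and 9258, 9480, 9165 and 11737 units in CpG samples. Before scaling all CpG arrays were above all untreated arrays, as groups did not overlap for 39.6% of the 212 miRNAs there. The unscaled difference was 0.38 (SE 0.19, 95% interval -0.030 to 0.79), a 1.30-fold higher signal that lay between the 1.18-fold of the hur control features and the 1.74-fold of the 75th percentile. After scaling the sign turned. The log2 signal was 6.29, 5.87, 5.73 and 5.95 in untreated and 5.89, 5.23, 5.67 and 5.39 in CpG samples, where CpG replicate 1 reached into the untreated range. The means were 5.96 ± 0.24 and 5.54 ± 0.29 (SD, n = 4 each), and the difference was -0.42 (SE 0.19, 95% interval -0.84 to 0.0034).

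Both probes of miR-720 were well above background on all of their 80 spots and none of these was saturated. The probe with a target of 12 bases read 12219 to 13209 units on untreated and 15147 to 19632 units on CpG arrays. The probe with 11 bases read 2259 to 2569 and 3183 to 3842 units. Unscaled differences were 0.36 and 0.50 on the log2 scale, and the centred values of the 2 probes differed by 0.089 (root mean square over 8 arrays). Spots of 1 probe varied within an array with a median coefficient of variation of 3.38% and 2.70%.

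miR-715, described as a ribosomal RNA piece, was close to background. Its signal was 2.83, 2.47, 1.00 and 1.46 units in untreated and 4.57, 4.70, 3.20 and 4.10 units in CpG samples, and all CpG arrays lay above all untreated arrays before scaling. Groups did not overlap for 39.6% of the 212 miRNAs there. The unscaled difference was 0.93 (SE 0.24, 95% interval 0.40 to 1.45). After scaling the log2 signal was -5.16, -5.65, -6.55 and -6.36 in untreated and -5.10, -5.74, -5.81 and -6.10 in CpG samples, where the groups overlapped and untreated replicate 3 was at the floor. The scaled difference was 0.24 (SE 0.32, 95% interval -0.49 to 0.97). The scaled value depends on the floor, at 0.015 with a floor 2 times higher and 0.40 with one 2 times lower, so that no lower bound is given for the fold. Without untreated replicate 3 it was 0.037. Detection on 4 CpG arrays and 0 untreated arrays was found for 4 of the 567 mouse entries (0.705%). The detection flag is set within each array and the CpG arrays were the brighter ones, and the part of brightness in this pattern was not tested.

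On the CpG arrays the probe with the longest target was the brightest of the 4 of miR-715. That probe, with 13 bases, read 0.82 to 4.52 units on untreated and 6.48 to 10.6 units on CpG arrays, with 7 of 40 spots well above background. The probe with 12 bases read 2.18 to 3.65 and 3.01 to 6.08 units, that with 11 bases 0.39 to 2.20 and 0.82 to 2.93 units, and that with 10 bases -0.71 to 2.15 and 0.63 to 2.04 units. Among these 4 probes the groups were apart in that of 13 bases alone, and no share over all probes was computed. On the untreated arrays its mean (2.50 units) was below that of the probe of 12 bases (3.101 units).

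miR-805, on the mitochondrial genome, was not detected on any array. Its mean over probes was -0.18 ± 0.43 units in untreated and -0.76 ± 0.16 units in CpG samples (SD, n = 4 each), where 0 is the subtracted background. It was above 0 on untreated replicates 2 and 4, at 0.27 and 0.097 units. Negative control spots read 0.36 to 0.67 units on untreated and -0.85 to 0.66 units on CpG arrays. Of the 160 spots of its 4 probes over the 8 arrays, 1 was well above background, and no fold is given. That spot belongs to the probe with the longest target, 14 bases, which read 1.13, 1.27, 0.76 and 2.47 units on untreated and 0.56, 0.64, 0.60 and 0.21 units on CpG arrays. These groups did not overlap, and no share over all probes was computed. The means of the other 3 probes were below 0 in both groups.

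Among the 5 tested entries, 3 passed the limma threshold as lower with CpG (miR-712, miR-714 and miR-801) and 0 as higher, where 6.60% of the 212 passed as lower, 7.55% as higher and 14.2% in either direction. The entries were proposed with these calls known, so the calls, here and under alternatives, are no test of the entries. The shares are given for scale. Below 0 were 4 of the 5 entries, as were 64.6% of the 212, and the arrays of the groups did not overlap for 2 of the 5 (miR-712 and miR-801), as for 26.9% of the 212. The median difference of the 5 was -0.72, against -0.19 over all 212. Relative to the latter, miR-714 lay at -1.71, miR-801 at -0.85, miR-712 at -0.52, miR-720 at -0.22 and miR-715 at 0.44. Without scaling none of the 3 passed, the median of the 5 was 0.083 against 0.60 over all 212, and miR-715 passed as higher, where 41.5% of the 212 did. The calls over the whole table, 16 higher and 14 lower, became 88 and 0 without scaling, 93 and 0 on the values of the authors' deposited table, 70 and 2 with the hur features, 17 and 5 with the median of ratios, 16 and 7 with the 75th percentile over all mouse miRNAs, 13 and 7 with cyclic loess, and 4 and 139 with normexp.

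Across the other scalings, miR-714 stayed below 0, from -1.96 with quantile normalization to -1.10 without scaling, as did miR-801, from -1.06 with cyclic loess to -0.24 without scaling. miR-712 was at -0.16 on the hur features and turned to 0.083 without scaling. miR-720 was at 0 with quantile normalization, by construction, since it had the second-highest signal of the mouse entries on all 8 arrays, at 0.14 on the hur features and at 0.38 without scaling. miR-715 was between 0.085 with quantile normalization and 0.93 without scaling. With the normexp background all 5 were below 0, at -0.60 for miR-714, -0.37 for miR-801, -0.35 for miR-712, -0.22 for miR-715 and -0.21 for miR-720. The first 4 of these passed as lower, as did 139 of the 212 miRNAs in all. An offset of 50 is added there before the division by the percentile, which lowers dim entries on brighter arrays by construction. With the brightest probe of each miRNA alone, and the percentile taken anew from those probes, miR-712 was at -0.38, miR-714 at -1.67 and miR-801 at -0.91. None of the 3 passed. The scaled probe differences of miR-712 given earlier use the percentile of the main setting and so differ from this value. Each of the 3 calls was lost in some of the fits that left out 1 array, also in fits where the difference was farther from 0 than in the main fit. That of miR-714 was lost without untreated replicate 1, 2 or 3 (-1.80, -1.88 and -1.76) or CpG replicate 2, 3 or 4 (-1.90, -1.80 and -1.51). That of miR-801 was lost without untreated replicate 1 or 2 (-0.85 and -1.12) or CpG replicate 2 or 3 (-0.86 and -1.16). That of miR-712 was lost without untreated replicate 1, 2 or 4 (-0.60, -0.76 and -0.70) or CpG replicate 2 or 3 (-0.64 and -0.76). The calls over the whole table moved likewise, to 3 higher and 2 lower without untreated replicate 2 or without CpG replicate 3.

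**Figure D3:**
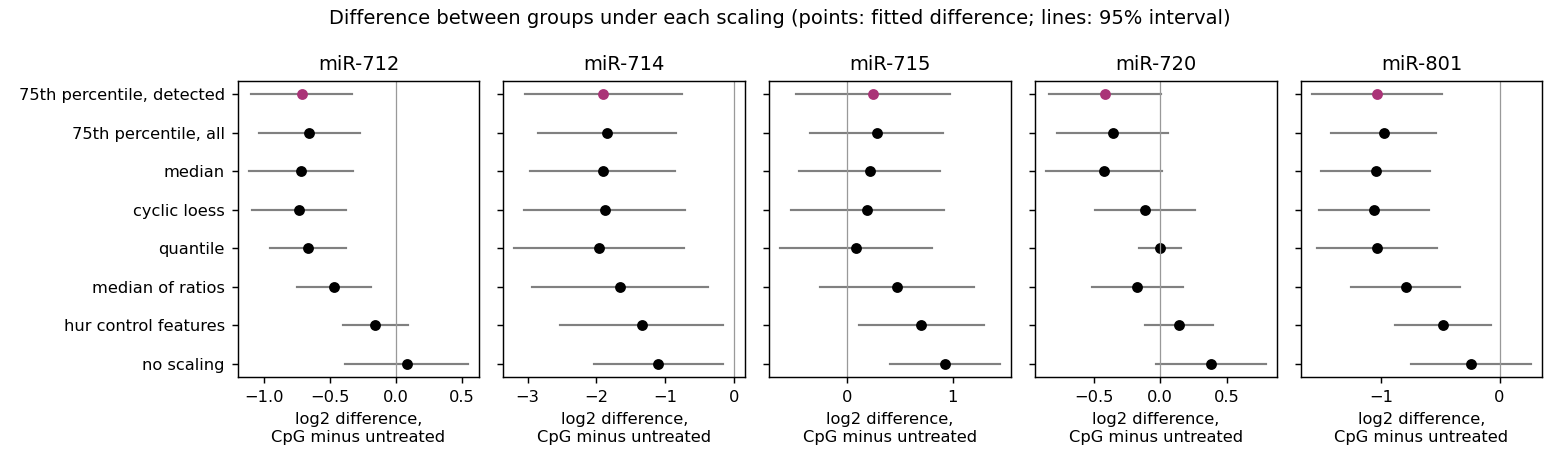
Fitted log2 difference between CpG and untreated samples of the 5 tested entries under each scaling (points), with the 95% interval from limma (lines) and the main scaling in purple. The points of miR-714 and miR-801 lie below 0 in all 8 forms shown, while those of miR-712 lie above 0 without scaling and those of miR-720 with the hur features and without scaling.

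**Figure D4:**
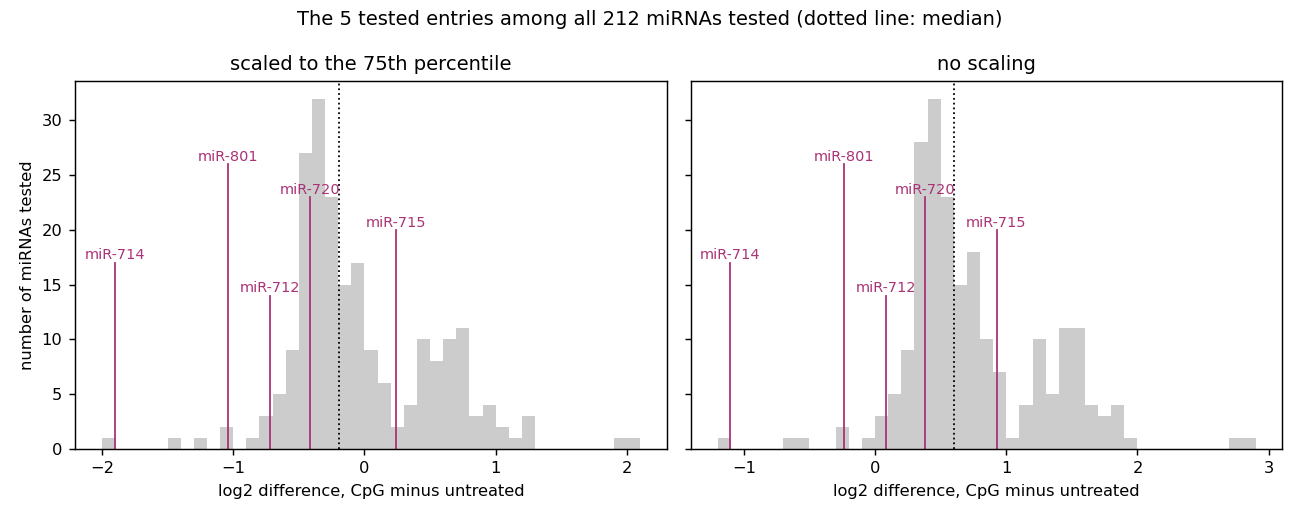
Number of miRNAs by log2 difference, CpG minus untreated, for the 212 tested, with scaling (left) and without (right), the 5 entries marked and the median dotted. miR-714 is the leftmost of all in both panels, and the median moves from -0.19 to 0.60.

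The slide held 2 rows with 2 arrays of each group, which allowed a comparison that the choice of entries did not use. Between row 2 and row 1, with the group in the fit, none of the 212 miRNAs passed (0%; limma, smallest adjusted p = 0.51, 10 with an unadjusted p under 0.05). Row 2 minus row 1 was -0.24 for miR-712, 0.095 for miR-714, -0.26 for miR-715, -0.25 for miR-720 and -0.29 for miR-801 (limma adjusted p = 0.56, 0.92, 0.71, 0.56 and 0.58). The widest 95% interval was that of miR-714, -1.18 to 1.37. Within rows 1 and 2 the difference between CpG and untreated samples was -1.50 and -2.31 for miR-714, -1.15 and -0.93 for miR-801, -0.88 and -0.55 for miR-712, -0.48 and -0.35 for miR-720, and 0.16 and 0.32 for miR-715. Each entry kept its sign in both rows. These values split the same arrays and the comparison with which the entries were proposed. They average to the full difference and are not an independent check. With the row as a block in the fit, miR-712 and miR-801 passed as lower and miR-714 did not, where 15 of the 212 passed as lower and 13 as higher.

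The entries did not share 1 profile over the arrays. Likeness was measured as the root mean square difference of scaled log2 values over the 8 arrays after each miRNA's own mean was subtracted. Among the 5, the closest pair was miR-712 and miR-720 (0.19), followed by miR-712 and miR-801 (0.25), and the farthest was miR-714 and miR-715 (1.23). Against the miRNAs detected on all 8 arrays, the nearest to miR-712 were miR-202-3p (0.11), miR-23a (0.14) and miR-30c (0.15), and those to miR-720 were miR-27b (0.10), miR-24 (0.11) and miR-324-5p (0.11). The nearest to miR-801 were miR-712 (0.25), miR-23a (0.31) and miR-30c (0.32). For miR-714 they were miR-149 (0.82), miR-801 (0.88) and miR-219 (0.93), so that no miRNA followed it closely. For miR-715 they were miR-24-1* (0.31), miR-221 (0.31) and miR-29b (0.33). The median over all miRNAs compared was 0.35 for miR-712, 0.29 for miR-720, 0.53 for miR-801, 1.16 for miR-714 and 0.57 for miR-715. The 2 brighter probes of miR-712 differed from each other by 0.39 in this measure, so its nearest profiles are those of a mean over probes that disagree. All profiles share the same scaling, and they are compared in pattern only, not in level.

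For comparison, the array holds 40 other entries with numbers close to those of miR-712, miR-714, miR-715 and miR-720, arms included. Of these, 16 were detected on at least 1 array, 11 were tested and 0 passed in either direction, where 14.2% of the 212 did. The 6 entries were proposed with their calls known, so the calls of the lists cannot be set against each other. The median difference of the 11 was -0.071 (0.63 without scaling). The 4 of highest signal were miR-709, miR-689, miR-690 and miR-680. miR-709 read 401 ± 100.3 units in untreated and 482 ± 115 units in CpG samples (SD, n = 4 each), and on the scaled log2 values CpG minus untreated was -0.54 (SE 0.17, adjusted p = 0.0566 by limma). miR-680, a neighbour that is printed among the sequences, went the other way, from 17.7 ± 5.95 to 50.4 ± 7.42 units (SD, n = 4 each), at a scaled log2 difference of 0.76 (SE 0.23, adjusted p = 0.0566 by limma). miR-689 was at -0.45 and miR-690 at -0.17.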

How the data were processed

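Agilent mouse miRNA arrays were read in 1 colour (Cy3). The authors deposited scanner output, made per the file headers with Feature Extraction 9.5.3.1, whose processed signal is an intensity per spot, background-subtracted and not scaled between arrays. Deposited gene summaries hold the detection flag and the total signal of each entry. The authors' series table holds such intensities for 260 entries, 5 of the 6 among them. limma is named in the submitters' processing notes, and no source used here says how it was applied.

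Spots with outlier flags were left out, spots averaged per probe and probes per miRNA. Signals were divided by the array's 75th percentile, set to a floor of 0.0107 (log2 -6.55, the median over arrays of the lowest detected signal) and logged. limma 3.58.1 in R 4.3.3 fitted the 212 miRNAs (lmFit, eBayes, two-sided, Benjamini-Hochberg, threshold 0.05), and was tested on simulated data. Array measures were compared by exact permutation. The spread behind the p-values is that between these samples and may be technical. The number of arrays limits precision. The named miRNAs are all 6 entries with their probes, the 3 nearest profiles of each tested entry, up to 4 neighbouring entries by signal, and the marker list. The members and lists were chosen with earlier results of these data known. Alternatives were other scalings, backgrounds, signals, probe summaries, floors, filters, limma options, blocks and leaving out each array. Figures were drawn with matplotlib 3.10.9 (Python 3.11.15).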

Additional observations from a re-analysis of the deposited data

Results flagged for a closer look

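In 24 groups of 4 arrays checked for the tested entries and for the arrays' brightness, 1 of the 4 stood well apart in 2 groups; about 1 group in 20 does so by chance. miR-720 read 11737 units before scaling on CpG replicate 4, against a mean of 9301 on the other CpG arrays. miR-801 had a scaled log2 signal of -3.13 on untreated replicate 1, against a mean of -3.90 on the other untreated arrays, and without that array its difference was -0.85.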

How the results depend on the processing

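Of 139 values of the 5 tested entries under alternatives, 121 lay within 1 SD of the reported value and 16 lay farther away. The other 2 had the opposite sign of a value that had passed, miR-712 at 0.083 without scaling and 0.081 on the values of the authors' deposited table, passing in neither. Filters, limma options and blocks cannot change a fitted difference here, so their values lie within 1 SD by construction. The floors moved only miR-715. The 121 are therefore no measure of how robust the differences are. Across alternatives miR-714 passed the limma threshold in 13 of 28, miR-712 in 18 of 28, miR-801 in 19 of 28 and miR-720 in 0 of 28. miR-715 passed in 3 of 27, as higher without scaling and on the authors' deposited table and as lower with normexp. The sign of miR-720, which did not pass, was opposite in 3 of 28. Calls over the whole table, 16 higher and 14 lower, were 88 and 0 without scaling, 93 and 0 with that table, 70 and 2 with the hur features, and 4 and 139 with normexp, where the offset of 50 is added before the division. Without a filter they were 2 and 1. Higher calls were 9 with quantile normalization. Lower calls were 7 with the 75th percentile over all mouse miRNAs, with the median and with cyclic loess, 5 with the median of ratios, 4 with the brightest probe, 34 with a floor 2 times higher and 29 with the eBayes trend. Leaving out 1 array gave 3 to 39 higher and 2 to 29 lower. In the array labels each CpG sample carries the name of the same-numbered untreated sample, and their arrays lay side by side in the same slide row. Whether same-numbered samples came from a shared culture is not stated. Deviations of same-numbered arrays correlated at 0.28, -0.26, 0.25 and 0.096, 1 of 4 untreated arrays being closest to its own number. So few correlations cannot settle whether the samples were paired. With the replicate number as a block 16 were higher and 22 lower, and miR-712, miR-714 and miR-801 passed. The SE of each tested entry was then smaller, for miR-714 0.32 against 0.51 in the main fit. The cause of these shifts was not tested. Signal near background limits miR-715 and miR-805, with 9 and 1 of 160 spots well above background. For miR-712, miR-714 and miR-801 the spots well above background were 80, 76 and 76 of 160, so these are limited as well.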
